A study of Oryza sativa with 12 samples.

Results

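Leaves of the rice introgression line IL22 were compared with leaves of its recurrent parent OLESA after salt treatment. The comparison used the 3 IL22 and the 3 OLESA salt libraries, 6 of the 12 libraries of the series, and all genes, with those on Chromosomes 1 and 3 kept apart from the others. Of 36844 features, 4967 had a locus ID on Chromosome 1, 4272 on Chromosome 3 and 26428 on another chromosome, and 1177 had no rice locus ID. After filtering on low counts, 20760 features were tested, of which 3020 were on Chromosome 1, 2758 on Chromosome 3, 14901 on the other chromosomes and 81 without a locus ID.

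OLESA, labelled PL12 in the series, is a salt-sensitive *japonica* cultivar, and IL22 is a single line bred by backcrossing the salt-tolerant *indica* line FL478 to OLESA and then selfing, so it carries *indica* segments, *Saltol* among them, in a *japonica* background. Plants of both genotypes were raised in hydroponic culture and given 80 mM NaCl for 24 h, or no NaCl for the control groups, and each group had 3 replicates, each of 4 plants pooled. Fragments were counted on the gene models of a *japonica* genome (IRGSP-1.0), so that a gene of an *indica* segment that is absent from these models or too divergent to align can be read as low or absent in IL22. The part of this in the results below was not tested.

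*Saltol* is a quantitative trait locus on Chromosome 1 known for keeping the Na+/K+ ratio low in rice shoots, and an HKT-type Na+ transporter that removes Na+ from the xylem sap lies in it. In leaves, salt acts first as an osmotic stress and later through the build-up of Na+, and leaf cells answer with changes in ion transport, osmoprotection, hormone signalling and defence against reactive oxygen species. In an introgression line, a gene in a donor segment carries the donor's own promoter and coding sequence. A gene outside such segments shares its sequence with the recurrent parent. In the line studied here, the paper placed most donor genes in large segments. It also reported a small number of donor genes spread over most of the other chromosomes. The genes of the other chromosomes can therefore include donor genes, and which of them are was not examined.

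The salt libraries held between 11505396 and 20541526 counts. The log2 CPM of the IL22 salt libraries correlated with each other at 0.974 to 0.981, those of OLESA at 0.950 to 0.954, and IL22 with OLESA salt libraries at 0.927 to 0.949, as correlations across genes, which are not independent replicates. The median SD of a gene over the 3 libraries was 0.18 log2 units in IL22 and 0.31 in OLESA on the other chromosomes. The files do not pair locus IDs with gene names, and the gene table at hand matched 1 of 36844 IDs. Gene functions, and markers of leaf cell types, could therefore not be examined, and in bulk leaves fewer cells of a type and less RNA per cell cannot be told apart.

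In salt, 592 genes differed between the genotypes (2.85% of those tested), 249 of them higher (1.2%) and 343 lower (1.65%) in IL22. These differentially expressed genes (DEGs) had an adjusted p of at most 0.05 in edgeR's quasi-likelihood test and a log2 fold change (FC) beyond 0.5. With an unadjusted p in place of the adjusted p, 3585 genes (17.3%) passed. Chromosome 1 held 236 DEGs, 88 up-regulated and 148 down-regulated in IL22, which was 7.81% of its tested genes. Chromosome 3 held 68 DEGs (2.47%), 23 higher and 45 lower. The other 10 chromosomes held 288 DEGs (1.93%), 138 higher and 150 lower, and each of them had between 1.40% and 2.49% of its genes called. No DEG was found among the 81 features without a locus ID. Chromosomes 1 and 3 together thus had 304 DEGs, 51.4% of the total, from 5778 tested genes. The IL22 and OLESA salt libraries did not overlap for any of the 592 DEGs. Over all genes tested, 31.6% did not overlap, a share that ran from 29.1% to 37.0% over the 12 chromosomes. The DEGs were chosen on these same libraries, so their lack of overlap follows largely from the choice and is no separate support.

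**Figure D1:**
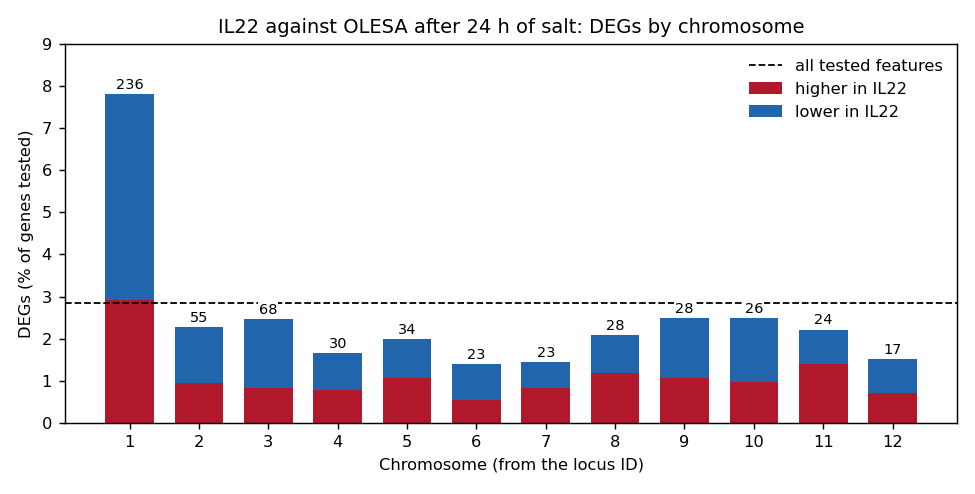
DEGs between IL22 and OLESA in salt as a percentage of the genes tested on each chromosome, with genes higher in IL22 in red, genes lower in IL22 in blue, the number of DEGs above each bar and a dashed line at 2.85%, the share over all tested features. Chromosome 1 stands at 7.81%, and the other 11 chromosomes lie between 1.40% and 2.49%.

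The counts depended on single libraries. Without IL22 control replicate 1, which enters the estimate of the spread and not the comparison itself, 436, 218 and 1135 DEGs were called on Chromosome 1, Chromosome 3 and the other chromosomes, and dropping IL22 salt replicate 1 gave 112, 25 and 53. Leaving out IL22 salt replicate 2 gave 133, 32 and 83, leaving out IL22 salt replicate 3 gave 131, 31 and 78, and leaving out OLESA salt replicate 2 gave 149, 39 and 117. Without OLESA control replicate 2 the Chromosome 3 and other counts were 39 and 158, and without OLESA salt replicate 1 the other count was 176. Chromosomes 1 and 3 held between 36.6% (without IL22 control replicate 1) and 72.1% (without IL22 salt replicate 1) of the DEGs in these 12 fits. A total of 107 of the 236 DEGs on Chromosome 1 (45.3%), 25 of the 68 on Chromosome 3 (36.8%) and 42 of the 288 on the other chromosomes (14.6%) were called in every one of the 12 fits. Those 42 genes, 23 higher and 19 lower in IL22, lay on all 10 of the other chromosomes.

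The split between directions depended on the scaling, the filter and single libraries. Genes higher in IL22 made up 42.1% of the DEGs with TMM factors and 54.3% with upper-quartile factors. With TMM factors and a mean of at least 25 CPM they made up 53.1%. On the other chromosomes this share was 34.3% without IL22 control replicate 1 and 62.8% without IL22 salt replicate 3. On Chromosome 1, Chromosome 3 and the other chromosomes this share was 37.3%, 33.8% and 47.9% with TMM factors and 43.4%, 50.8% and 63.8% with upper-quartile factors, which moved the median log2 FC of all genes from −0.0020 to 0.071.

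The DEGs of Chromosome 1 differed by more than those elsewhere. Their median log2 FC was 1.98 for genes higher in IL22 and −2.47 for genes lower in IL22. The medians were 1.29 and −1.23 on Chromosome 3 and 1.21 and −1.10 on the other chromosomes, and over all genes tested the median was −0.0020. Among the DEGs, 128 of 236 (54.2%) on Chromosome 1, 18 of 68 (26.5%) on Chromosome 3 and 37 of 288 (12.8%) on the other chromosomes lay beyond a log2 FC of 2. These sizes describe genes that were chosen by the same contrast, and were not tested. On Chromosome 1, 50 DEGs had no count in any salt library of one genotype, as had 6 on Chromosome 3 and 1 on the other chromosomes. Giving these genes the bound set by 3 counts over the group left the medians at 1.98 and −2.47 on Chromosome 1. A median depends little on extreme values such as theirs, so this is a weak check.

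The share of DEGs on Chromosome 1 varied little with expression level. It was 7.54% of 305 genes under 1 CPM, 7.85% of 1134 genes between 1 and 10 CPM, 7.70% of 1351 genes between 10 and 100 CPM and 8.70% of 230 genes over 100 CPM. On the other chromosomes it was 0.334% of 1497, 1.3% of 5468, 2.45% of 6814 and 4.01% of 1122 genes in the same classes. Thus the gap between Chromosome 1 and the others was widest among weakly expressed genes. On Chromosome 3 the share was 0.465% under 1 CPM and 3.00% over 100 CPM.

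The DEGs were not spread evenly along Chromosomes 1 and 3. Within a chromosome, tested genes were sorted by locus ID, a numbering that runs along the chromosome, and divided into 10 bins of equal gene number. On Chromosome 1, bins 1 and 4 had 61 and 73 DEGs of 302 genes each, that is 20.2% and 24.2%. Bins 2 and 3 had 30 and 29 DEGs (9.93% and 9.60%), and bins 5 to 10 had between 6 and 9. The first 5 bins together held 201 DEGs of 1510 genes (13.3%) and the last 5 held 35 (2.32%). On Chromosome 3, bin 1 had 27 DEGs of 275 genes (9.82%) and the other 9 bins together had 41 of 2483 (1.65%). Among the 100 bins of the other chromosomes, the highest count was 9 DEGs and the highest share was 5.19%, with a median share of 1.77%. These stretches were chosen after their values were seen, so no test was made of them.

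**Figure D2:**
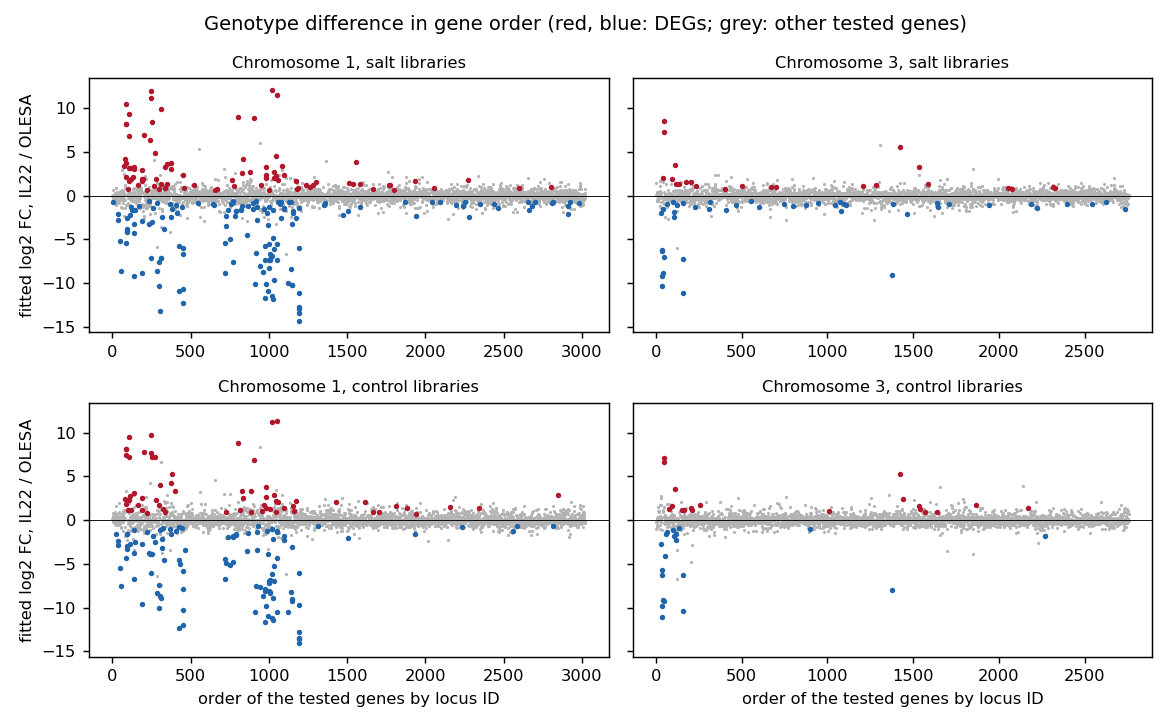
Fitted log2 FC of IL22 over OLESA (y axis) for each tested gene of Chromosomes 1 and 3 in the order of its locus ID (x axis, gene rank), in salt (top) and in control (bottom), with DEGs higher in IL22 in red, DEGs lower in blue and other genes in grey. In salt, 201 of the 236 DEGs of Chromosome 1 lie in the first 5 bins of 302 genes, and 27 of the 68 DEGs of Chromosome 3 lie in its first bin of 275 genes.

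Neighbouring genes were often both DEGs on Chromosome 1. The next tested gene was also a DEG for 74 of the 236 DEGs (31.4%) on Chromosome 1, in the same direction for 50 of them. This held for 7 of 68 (10.3%) on Chromosome 3 and 4 of 288 (1.39%) on the other chromosomes. Neighbours share the density of DEGs in their stretch, and genes that overlap or are near-identical copies may share fragments, and how fragments matching several genes were handled is not given in the sources read here.

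The control libraries were not used by the comparison in salt and allowed the same genotype difference to be measured again in untreated leaves, with only the estimate of the spread in common. In control, 286 genes were DEGs between IL22 and OLESA (1.38% of those tested). On Chromosome 1, 125 of the 236 salt DEGs (53%) were also DEGs in control with the same sign, 37 of 88 among those higher and 88 of 148 among those lower in IL22, and 1 was a DEG with the opposite sign. On Chromosome 3 there were 18 of 68 (26.5%) with the same sign and 1 with the opposite sign. On the other chromosomes there were 10 of 288 (3.47%) with the same sign and 8 with the opposite sign. The control count on the other chromosomes was 38 without IL22 control replicate 1, and 6 without IL22 salt replicate 1 or without IL22 salt replicate 2. On Chromosomes 1 and 3 together it was 143, and between 110 and 204 when single libraries were left out.

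Without regard to significance, the sign in control matched that in salt for 197 of the 236 salt DEGs on Chromosome 1 (83.5%), 37 of 68 on Chromosome 3 (54.4%) and 95 of 288 on the other chromosomes (33.0%). The median control log2 FC was 1.41 for the genes higher and −2.24 for the genes lower in IL22 salt on Chromosome 1. It was −0.15 and −0.23 on Chromosome 3, and −0.12 and 0.21 on the other chromosomes, against 0.01 for all genes tested. Thus the typical salt DEG of Chromosome 1 was also apart in untreated leaves. On the other chromosomes the median genotype difference without salt was small, and opposite in sign to that in salt in both lists.

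**Figure D3:**
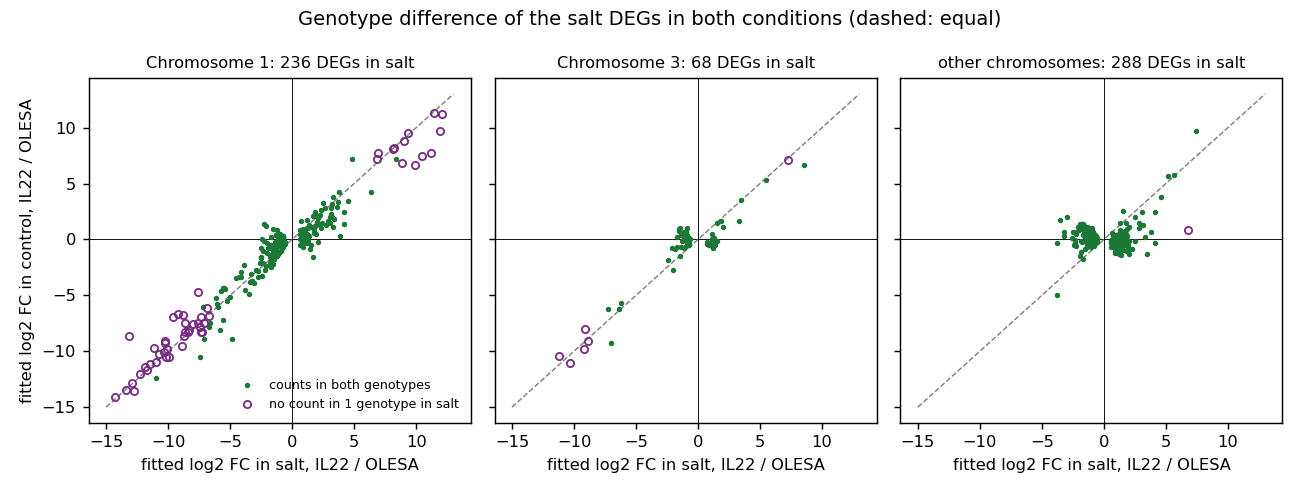
Fitted log2 FC of IL22 over OLESA in control (y axis) against that in salt (x axis) for the salt DEGs on Chromosome 1, Chromosome 3 and the other chromosomes, with a dashed line where both are equal and open circles for genes with no count in one genotype in salt (their fitted values depend on a prior count). The sign in control matches that in salt for 83.5% of the Chromosome 1 genes, against 33.0% of those of the other chromosomes.

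The stretches that were rich in DEGs held most of the genes of Chromosomes 1 and 3 called in both conditions. Of the 201 salt DEGs in the first 5 bins of Chromosome 1, 124 (61.7%) were DEGs with the same sign in control, against 1 of 35 (2.86%) in the last 5 bins. In bin 1 of Chromosome 3 it was 15 of 27 (55.6%), against 3 of 41 (7.32%) in the other 9 bins. The share on the other chromosomes was 3.47%, and the shares outside these stretches rest on 1 and 3 genes.

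The difference between the genotype effects in salt and in control (the interaction) was tested in the same fit, and 1036 genes passed at an adjusted p of at most 0.05 (4.99% of those tested). Among the salt DEGs, 35 on Chromosome 1 (14.8%), 31 on Chromosome 3 (45.6%) and 167 on the other chromosomes (58%) passed. The interaction uses the salt libraries that chose these genes, which favours a pass, so the shares are a description. On Chromosomes 1 and 3 together 66 DEGs passed, of which 2 were also DEGs with the same sign in control. This count was the least stable of all, since leaving out a single library moved it by over 1.5 times for 10 of the 12 libraries. Without IL22 control replicate 1 it was 356 on Chromosomes 1 and 3 and 906 on the others, and without OLESA control replicate 1 and OLESA salt replicate 3 it was 51 and 133, and 83 and 216, respectively. Leaving out OLESA control replicate 2 or 3, IL22 control replicate 2 or 3, OLESA salt replicate 1 or 2, or any IL22 salt replicate gave between 4 and 9 on Chromosomes 1 and 3, and between 12 and 25 on the others.

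The levels of the DEGs in each library showed where the groups parted. For the 138 genes of the other chromosomes that were higher in IL22 in salt, the median level was between 3.35 and 3.45 log2 CPM in the OLESA salt libraries and between 4.60 and 4.67 in the IL22 salt libraries. In control it was 4.22 to 4.44 in OLESA and 4.14 to 4.24 in IL22, and these ranges overlapped. For the 150 genes that were lower in IL22, the median was 5.38 to 5.47 in OLESA salt, 4.16 to 4.43 in IL22 salt, 4.44 to 4.73 in OLESA control and 4.61 to 5.05 in IL22 control. Between control and salt, the median change of the 138 genes was −0.91 on the log2 scale in OLESA (quartiles −1.34 and −0.47) and 0.41 in IL22 (quartiles −0.03 and 0.90). For the 150 genes it was 0.80 in OLESA (quartiles 0.14 and 1.34) and −0.58 in IL22 (quartiles −1.08 and −0.20). The changes with salt share the salt libraries with the comparison that chose the genes. In both lists the OLESA salt libraries and the IL22 salt libraries lay on opposite sides of the range of the 6 control libraries.

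For the DEGs of Chromosomes 1 and 3 pooled, of which Chromosome 1 gave 236 of 304, the median levels of the genotypes were apart in both conditions. For the 111 genes higher in IL22 in salt, the median level was 2.22 to 2.83 log2 CPM in OLESA salt, 4.18 to 4.28 in IL22 salt, 2.64 to 2.98 in OLESA control and 3.95 to 4.01 in IL22 control. For the 193 genes lower in IL22, it was 4.37 to 4.42 in OLESA salt, 1.77 to 2.02 in IL22 salt, 3.98 to 4.22 in OLESA control and 1.73 to 1.82 in IL22 control. All libraries of one genotype, treated or not, lay on the same side of all libraries of the other genotype in both pooled lists. For Chromosome 3 taken alone, levels were taken per group and not per library, and its 2 lists differed. Its 45 genes lower in IL22 in salt had a median group level of 4.18 log2 CPM in OLESA control and 4.31 in IL22 control. In salt they had 5.25 in OLESA and 3.85 in IL22, so the order of these median levels was not the same in control. Gene by gene, the median control log2 FC of this list was −0.23, and 26 of the 45 genes (57.8%) kept their sign. Its 23 genes higher in IL22 had 4.56 in OLESA control and 4.90 in IL22 control, against 4.25 and 5.61 in salt. The median levels of this list thus kept their order in control. Gene by gene, however, its median control log2 FC was −0.15, and 11 of the 23 genes (47.8%) kept their sign. Medians of levels over a list therefore do not give the order within its genes.

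**Figure D4:**
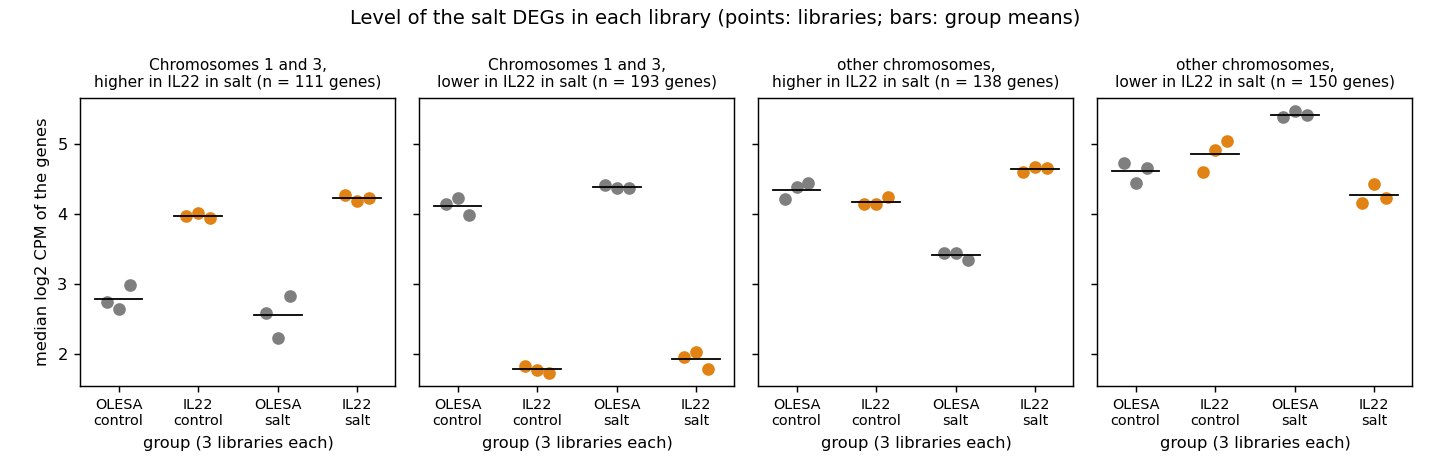
Median log2 CPM (y axis) of the salt DEGs in each of the 12 libraries (points; bars are means of 3 libraries), for the genes higher and lower in IL22 in salt on Chromosomes 1 and 3 together and on the other chromosomes, with OLESA in grey and IL22 in orange. The pooled lists of Chromosomes 1 and 3, which Chromosome 1 dominates, are apart in control and salt, whereas those of the other chromosomes are apart in salt, with OLESA salt at 3.35 to 3.45 and IL22 salt at 4.60 to 4.67 for the genes higher in IL22.

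Genes with counts in one genotype only were nearly confined to Chromosomes 1 and 3. With at least 10 counts in each salt library of one genotype and no count in the 3 of the other, 13 genes of Chromosome 1 were detected in IL22 only and 34 in OLESA only. On Chromosome 3 there were 1 and 5, respectively. The 14 genes found in IL22 only on these chromosomes had a mean of 0.856 to 32.6 CPM in IL22 salt (median 4.42), and the 39 found in OLESA only had 0.822 to 152.5 CPM in OLESA salt (median 7.48). By the same rule in control, 8 of the 14 and 34 of the 39 were again detected in the same genotype only. Elsewhere 1 such gene was found, on Chromosome 2, with 12 to 14 counts in the IL22 salt libraries. It had 38 counts over the 3 OLESA control libraries, so it was not absent from OLESA. When a salt library was left out, the count on Chromosomes 1 and 3 went from 53 to between 54 and 59. The count elsewhere was 7 without OLESA salt replicate 3, 3 without OLESA salt replicate 2, and 2 without IL22 salt replicate 1 or without IL22 salt replicate 3. A gene that meets the rule also meets it with a library left out, so these counts could not fall.

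A few locus IDs are given with their values. Eligible were DEGs with at least 10 counts in each of the 6 salt libraries and no overlap between the genotypes in salt. Among these, the smallest p of each direction was taken on Chromosomes 1 and 3 together and on the other chromosomes. The lack of overlap in salt was thus a condition of choice and not a result. Genes with fewer counts in one genotype, some of which had smaller p, were not eligible. What these genes encode is not annotated in the files. Os01g0503400, at place 1096 of the 3020 tested genes of Chromosome 1, had 162.4, 135.6 and 134.8 CPM in the IL22 salt replicates 1 to 3 and 31.5, 24.9 and 27.3 CPM in those of OLESA. The level was 144.2 ± 15.7 CPM in IL22 and 27.9 ± 3.36 CPM in OLESA (SD, n = 3), a log2 FC of 2.37 (SE 0.16, adjusted p = 1.68e-06 in edgeR's quasi-likelihood test). In control it was 144.1 ± 13.9 CPM in IL22 and 53.3 ± 6.01 CPM in OLESA, with a log2 FC of 1.43 (adjusted p = 0.000148). The IL22 level was thus much the same in both conditions, whereas OLESA was lower in salt than in control without overlap. The interaction was 0.94 (SE 0.21, adjusted p = 0.0357), and this call was lost in 10 of 20 alternatives (adjusted p from 0.00111 to 0.103).

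Os01g0361000, at place 1003 of the 3020 genes of Chromosome 1, had low counts in IL22 on the *japonica* gene models. Whether its transcript was scarce or aligned poorly in IL22 was not tested. The salt replicates had 1.27, 4.64 and 1.93 CPM in IL22 and 119.0, 118.3 and 127.3 CPM in OLESA, and the groups were far apart. The log2 FC in salt was −5.55 (SE 0.36, adjusted p = 1.35e-06), and in control it was −7.19 (adjusted p = 3.91e-07 in edgeR's quasi-likelihood test), with 1.05 ± 0.220 CPM in IL22 and 153.0 ± 17.0 CPM in OLESA (SD, n = 3). The interaction was 1.64 (SE 0.49, adjusted p = 0.0692) and passed the threshold in 4 of 20 alternatives (adjusted p from 0.0147 to 0.174).

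Os08g0367300, at place 669 of 1346 on Chromosome 8, was apart in both conditions outside Chromosomes 1 and 3. It had 67.8, 60.5 and 54.9 CPM in the IL22 salt replicates and 1.77, 1.18 and 0.669 CPM in those of OLESA. The log2 FC was 5.68 (SE 0.37, adjusted p = 1.34e-06 in edgeR's quasi-likelihood test) in salt and 5.81 (adjusted p = 1.31e-06) in control, where IL22 had 56.0 ± 13.9 CPM and OLESA 0.997 ± 0.513 CPM (SD, n = 3). It is thus one of the 10 genes of the other chromosomes called in both conditions with the same sign. Whether it is among the donor genes that the paper reports on the other chromosomes was not tested. The interaction was −0.13 (SE 0.50, adjusted p = 0.902).

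Os04g0690800, at place 1789 of 1813 on Chromosome 4, differed in salt. It had 6.28, 6.45 and 5.23 CPM in the IL22 salt replicates and 40.4, 20.5 and 27.5 CPM in those of OLESA, again without overlap, a log2 FC of −2.30 (SE 0.29, adjusted p = 0.000503 in edgeR's quasi-likelihood test). In control it had 12.7 ± 2.61 CPM in IL22 and 13.4 ± 3.85 CPM in OLESA (SD, n = 3), with overlapping replicates, and a log2 FC of −0.09 (SE 0.27, adjusted p = 0.890). The salt level thus lay below the control level in IL22 and above it in OLESA, with no overlap in either genotype. The interaction was −2.21 (SE 0.39, adjusted p = 0.0271), and this call was lost in 8 of 19 alternatives (adjusted p from 4.44e-05 to 0.0884). The salt calls of all 4 genes held in every alternative that gave them a value. The genes were chosen by the smallest p of this same comparison, which favours such an outcome, so it is no separate support.

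**Figure D5:**
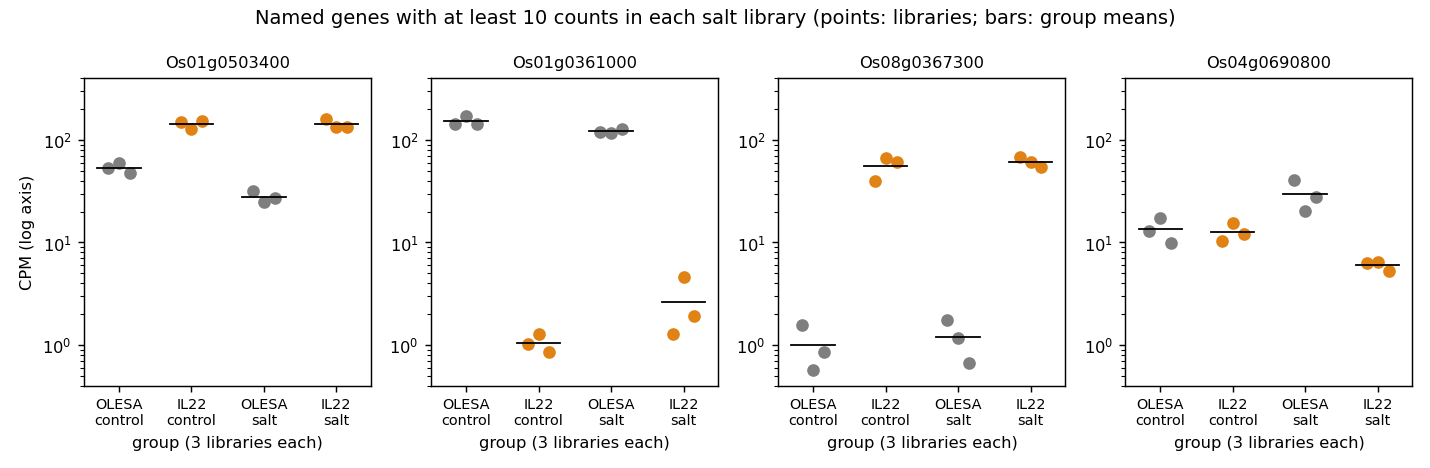
CPM on a log axis (y axis) of the 4 named genes in each library (points; bars are means of 3 libraries), with OLESA in grey and IL22 in orange, in control and salt. Os01g0361000 and Os08g0367300 are far apart in both conditions, Os01g0503400 is apart in both with OLESA at 53.3 CPM in control and 27.9 CPM in salt, and Os04g0690800 is apart in salt, with 5.99 CPM in IL22 and 29.5 CPM in OLESA.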

How the data were processed

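Leaf RNA-Seq of IL22 and OLESA with or without 80 mM NaCl for 24 h was analysed from 12 libraries, grouped by the line and treatment labels. The deposited values are raw counts of fragments per feature in each library, without normalization by the authors. According to the submitters' processing notes and the study's methods, reads of stranded libraries were split by bcl2fastq 2.20, trimmed with BBDuk and cutadapt 1.11, aligned with STAR 2.5.2b and counted with featureCounts 1.5.1. All 12 count columns were mapped to samples.

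The analysis used edgeR 4.0.16 under R 4.3.3. Of 36844 features, 6937 had no count. filterByExpr (minimum count 10, minimum total 15) kept 20760. TMM factors (0.845 to 1.12), dispersions and the quasi-likelihood fit used all 12 libraries with 1 mean per group, since the methods of the study use edgeR with TMM, and p-values were adjusted over all features by the Benjamini-Hochberg method. The study called DEGs on p-values, and adjusted p was used here. The study also required a minimum expression level and used another filter of low counts (HTSFilter). For IL22 against OLESA without salt, it focused on genes outside the introgressed intervals. Its counts therefore cannot be set directly beside those given here. SEs were derived from the F statistic, log2 CPM used a prior count of 2, and chromosomes were read from the locus ID. Nothing says whether replicates were grown apart, so p-values measure the spread between these libraries. Counting error only is covered by a bound of 3 counts.

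The members, gene lists and rules were chosen with earlier results of these data known. The named genes are the smallest p of each direction, on Chromosomes 1 and 3 and on the others, with at least 10 counts in each salt library and no overlap. The lists of salt and leaf marker genes could not be used because IDs were not paired with names. The steps were tested on simulated data of 20431 genes. They recovered 25 of 100 genes changed 2-fold and 93 of 100 changed 4-fold, and 6 of 124 calls were false. Most 2-fold differences were thus missed there. Alternatives were RLE, upper-quartile and restricted TMM factors, other filters, the likelihood ratio test, DESeq2 1.42.0, separate fits, a replicate block, an unadjusted p, a log2 FC of 1 and leaving out each library.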

Additional observations from a re-analysis of the deposited data

Results flagged for a closer look

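The genotype difference itself differed between salt and control, by the interaction in edgeR's quasi-likelihood test, for 66 of the salt DEGs on Chromosomes 1 and 3 and for 167 of those on the other chromosomes. For Os01g0503400 the log2 FC in salt exceeded that in control by 0.94 (adjusted p = 0.0357). For Os04g0690800 the difference was −2.21 (adjusted p = 0.0271). Both counts fell to between 4 and 9 and between 12 and 25 when most single libraries were left out, and rose to 356 and 906 without IL22 control replicate 1.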

How the results depend on the processing

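No called difference in salt of a named gene changed sign. These genes were chosen by the smallest p in salt, which favours such an outcome. The interaction of Os08g0367300, which was not called, went from −0.13 to between −0.56 and 0.29. The balance of higher and lower DEGs over all chromosomes turned with upper-quartile factors and with a mean of at least 25 CPM. It did not turn on Chromosome 1, where 43.4% and 43.8% were higher, and Chromosome 3 stood at 50.8% and 48.6%. On the other chromosomes it also turned with RLE factors (51.1% higher), a replicate block (55.1%) and a log2 FC beyond 1 (50.5%). There it turned as well in some fits with a library left out. With DESeq2 426, 188 and 961 DEGs were called on Chromosome 1, Chromosome 3 and the other chromosomes, with the likelihood ratio test 403, 173 and 852, with salt and control libraries fitted apart 380, 180 and 944, with an unadjusted p 729, 418 and 2434, and with a mean of at least 25 CPM 80, 37 and 154. A log2 FC beyond 1 left 182 on the other chromosomes. Left-out libraries gave 112 to 436, 25 to 218 and 53 to 1135.

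DEGs of the same sign in control numbered 28 on Chromosomes 1 and 3 and 2 elsewhere at 25 CPM, and 277 and 108 with an unadjusted p. Elsewhere they numbered 25 with DESeq2 and 24 with the likelihood ratio test. Left-out libraries gave 110 to 204 and 6 to 38. Salt DEGs that passed the interaction, on Chromosomes 1 and 3 and elsewhere, numbered 244 and 619 with DESeq2, 215 and 534 with the likelihood ratio test, 103 and 259 without the filter, 38 and 108 beyond a log2 FC of 1, and 652 and 1699 with an unadjusted p. At 25 CPM 107 passed elsewhere. Left-out libraries gave 4 to 356 and 12 to 906. Separate fits gave no interaction.

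Genes detected in one genotype only outside Chromosomes 1 and 3 numbered 3 at 5 counts and 0 at 20 counts, a rule with no test, and 1 to 7 with libraries left out. On Chromosomes 1 and 3 they numbered 54 to 59 with libraries left out. By this rule, leaving out a library cannot lower the counts. Os04g0690800 lay under 25 CPM and had no value there.

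In salt, deviations of same-numbered IL22 and OLESA libraries correlated at 0.092, 0.041 and −0.15, against −0.15 to 0.12 for libraries of unlike number. The control libraries were not checked. With 3 libraries a group, this check cannot decide whether the replicate numbers pair the libraries. A replicate block gave 164, 38 and 136 DEGs, 122 and 7 DEGs of the same sign in control, and 4 and 14 that passed the interaction.

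With 3 libraries a group, genes that were not called cannot be taken as equal between the genotypes. The cause of these dependences was not tested.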
